A study of Mus musculus with 24 samples.

Results

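The genes described here encode the alpha chains of the collagens, the triple-helical proteins that carry tensile load in the aortic wall. They were taken as every gene on the array whose symbol is Col, a number, the letter a and a number, control spots left out. This gave 43 genes of the 35019 on the array, measured by 68 of its 55681 probes, and the brightest probe stood for a gene with several. Every mouse ate normal chow and was either wild-type C57BL/6 or IL-17 knockout, on the C57BL/6 strain as well. The labels do not say which gene of the IL-17 family was deleted. Mice drank water with or without 1% NaCl, before and through 3 days in which vehicle or β-aminopropionitrile (BAPN) with angiotensin II was infused. BAPN blocks lysyl oxidase, the enzyme family behind collagen and elastin crosslinks, angiotensin II raises blood pressure, and the combination is used to bring on aortic dissection. Crossing genotype, salt and infusion gave 8 groups: control, salt, infusion, and salt with infusion, each in wild type and knockout. Each group had 3 arrays, which the series calls biological replicates. The labels of the salt groups name NaCl alone and those of the infusion groups name BAPN alone, so vehicle and angiotensin II are known from the protocol text. The tissue is labelled aorta, with no segment given, while the extraction text speaks of cells.

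Collagen chains fold together in threes inside the cell, after prolines and lysines are hydroxylated, and are trimmed, assembled and crosslinked outside it. Fibrillar collagens (types I, II, III, V, XI, XXIV and XXVII) form the load-bearing fibrils of the media and adventitia, and types V and XI regulate the width of fibrils of other types. Type IV collagens form the sheet-like network of basement membranes around smooth muscle cells and under the endothelium. The fibril-associated collagens with interrupted helices (FACIT) sit on the surface of fibrils, the short-chain collagens (types VIII and X) form lattices, and type VI forms beaded filaments between fibrils and cells.

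By class the array held 11 fibrillar, 6 type IV, 2 multiplexin, 9 FACIT, 3 short-chain, 6 type VI, 1 anchoring-fibril and 4 transmembrane chains, and Col28a1. Of the 43 genes, 24 were well above background on all 24 arrays. The tests took a gene if some group had the gene's brightest probe well above background on each of the group's 3 arrays. This kept 35 of the 43. The 8 left out were Col24a1, Col9a3, Col19a1, Col6a4, Col6a5, Col13a1, Col17a1 and Col28a1. Col6a4, Col6a5, Col24a1, Col13a1 and Col17a1 were well above background on 0 of 24 arrays, Col9a3 and Col28a1 on 1, and Col19a1 on 10. Col11a1, Col10a1 and Col2a1 were kept through infused groups alone and Col6a6 through uninfused knockout groups alone, so the direction of these 4 was favoured by the filter. Col25a1 was kept through wild-type groups alone, which holds likewise for its genotype comparison, as for that of Col6a6. Counts over the 35 genes are a description that includes these 5. Values are log2 signals relative to the 75th percentile of the same array, arrays are listed in the order of their replicate numbers, and a level is compared only with the same gene on other arrays. A difference was called where its adjusted p was under 0.05 (limma over 23477 genes, Benjamini-Hochberg).

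Per array 51.1% to 60.8% of spots were well above background and 0 were saturated. The number of arrays, 3 per group, limits the precision. Arrays lay on 4 slides, and no slide held both genotypes. Wild-type infusion arrays all lay on another slide than the wild-type controls. The third infusion-only array of each genotype stood apart from its group, with a lowest correlation over genes of 0.971 in wild type and 0.972 in knockout, against 0.981 to 0.995 within the other groups. Markers of the tissue were present: all 8 smooth muscle genes listed were well above background on all 24 arrays, as were 7 of 8 fibroblast genes.

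Promoter sequence is shown for chains that were called higher in all 4 infusion comparisons and for the type IV neighbours Col4a5 and Col4a6, which were called lower together. They are RefSeq sequence of GRCm38.p6, upstream of the transcription start, 5′ to 3′ on the gene's strand, cut to bases outside any annotated gene. Capitals mark matches to GGGCGG, the core of the Sp1 motif, or to the CCAAT box, on either strand.
Col8a1, chr16:57754738-57754987, minus strand: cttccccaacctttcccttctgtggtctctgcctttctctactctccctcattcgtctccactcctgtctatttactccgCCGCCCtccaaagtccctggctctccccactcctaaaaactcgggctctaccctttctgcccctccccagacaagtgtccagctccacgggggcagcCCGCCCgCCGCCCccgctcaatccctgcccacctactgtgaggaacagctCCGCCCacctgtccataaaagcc
Col5a1, chr2:27886175-27886380, plus strand: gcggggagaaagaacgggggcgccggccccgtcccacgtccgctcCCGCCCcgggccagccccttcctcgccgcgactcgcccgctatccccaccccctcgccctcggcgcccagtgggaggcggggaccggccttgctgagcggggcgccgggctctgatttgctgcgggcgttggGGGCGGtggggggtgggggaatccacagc
Col11a1, chr3:114030290-114030478, plus strand: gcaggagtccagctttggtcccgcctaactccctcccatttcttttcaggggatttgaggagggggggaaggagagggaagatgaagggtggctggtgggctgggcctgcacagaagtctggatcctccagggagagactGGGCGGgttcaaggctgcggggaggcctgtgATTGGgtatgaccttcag
Col6a3, chr1:90844002-90844221, minus strand: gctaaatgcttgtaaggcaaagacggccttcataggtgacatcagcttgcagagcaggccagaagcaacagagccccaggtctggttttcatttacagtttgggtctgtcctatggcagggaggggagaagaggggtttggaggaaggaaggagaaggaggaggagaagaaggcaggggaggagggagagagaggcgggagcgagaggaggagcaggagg
Col4a5, chrX:141475169-141475369, plus strand: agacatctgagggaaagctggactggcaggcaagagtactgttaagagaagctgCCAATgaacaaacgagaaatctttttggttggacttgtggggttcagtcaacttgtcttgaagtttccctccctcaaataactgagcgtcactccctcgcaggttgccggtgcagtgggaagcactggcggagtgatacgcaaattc
Col4a6, chrX:141474096-141474326, minus strand: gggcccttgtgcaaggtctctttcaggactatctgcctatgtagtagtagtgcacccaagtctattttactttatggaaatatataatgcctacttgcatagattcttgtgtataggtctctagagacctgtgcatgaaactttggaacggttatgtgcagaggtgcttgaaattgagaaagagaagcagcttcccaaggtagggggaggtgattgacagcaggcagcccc
Col8a1 held 4 GGGCGG matches, Col5a1 held 2 and Col11a1 held 1, while Col11a1 and Col4a5 each held 1 CCAAT. The shown stretches of Col6a3 and Col4a6 held neither. The letters TATAAA of the TATA box, the AP-1 motif TGANTCA and the CArG box (bound by serum response factor), also searched on both strands, were in none of the 6 stretches. Among 32851 promoter windows of 250 bases, GGGCGG was in 32.7%, the letters CCAAT were in 33.8%, the TATA box in 12.4%, the AP-1 motif in 6.75% and the CArG box in 1.47%. Those shares are over whole windows, and in theirs Col4a5 and Col4a6 also held GGGCGG, in bases that lie inside an annotated gene and are not shown, while Col6a3 held none of the 5 motifs. A match is a string of letters and not a measured site. Of the 43 genes 35 had a promoter entry, including 5 of the 7 called higher in all 4 comparisons. Col4a1 is among those 5 and is not shown, and its whole window held CCAAT and none of the other motifs. Type IV genes lie head to head. The starts of Col4a1 and Col4a2 are 21 bases apart, placed so that the annotated transcripts overlap at their 5′ ends. Those of Col4a5 and Col4a6 are 1343 bases apart, with a gap between the transcripts.

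Infusion of BAPN with angiotensin II changed the levels of most tested collagen chains, in both directions and unequally by class. Averaged over the 4 settings (each genotype, on water and on salt), 16 of 35 chains rose and 11 fell, and 58.8% of all genes tested were called (27.4% higher and 31.4% lower). The short-chain gene Col8a1, the fibrillar gene Col11a1, the FACIT gene Col12a1 and the type VI gene Col6a3 were among the chains that rose most. Col6a6, Col22a1 and the type IV chains Col4a3 to Col4a6 fell. The median difference over the 35 chains was 0.19 on the log2 scale, against -0.04 over all genes tested. Fewer cells of a type and less RNA per cell cannot be told apart in RNA of whole tissue.

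Taken singly, the comparisons share no arrays with each other. In wild type on water 13 chains rose and 4 fell, where 26% of all genes were called (12.2% higher and 13.8% lower). In knockout on water 12 rose and 7 fell, against 30.7% of all genes (14.4% and 16.3%). In wild type on salt 14 rose and 6 fell, against 32.9% (16.3% and 16.6%), and in knockout on salt 8 rose and 3 fell, against 25.2% (13.4% and 11.9%). The median over the chains was 0.18, 0.18, 0.23 and -0.01 in that order. Quantile normalisation turned the wild type on salt to 11 higher and 8 lower, where 33.1% of all genes were called. Of the 35 chains 7 were called higher in all 4 comparisons: Col8a1, Col11a1, Col12a1, Col6a3, Col5a1, Col5a2 and Col4a1. Of all genes tested 6.56% were. Only Col6a6 and Col22a1 among the 35 were called lower in all 4, against 5.56% of all genes. A second, dimmer probe of Col6a6 and of Col22a1 was not called in every comparison. The filter favoured the rise of Col11a1 and the fall of Col6a6, which these counts include. Further, 9 chains were called in none by their brightest probe: Col5a3, Col11a2, Col14a1, Col8a2, Col6a1, Col6a2, Col7a1, Col23a1 and Col25a1. A dimmer Col14a1 probe was called lower in wild type on water (-0.66, adjusted p 0.0168) and on salt (-0.82, adjusted p 0.0037). In knockout it was called on salt (-0.56, adjusted p 0.0374) and not on water. A dimmer Col23a1 probe was called lower in knockout on salt alone (-0.96, adjusted p 0.0229). No chain was called in opposite directions in 2 of the comparisons. The shares of all genes called in none or in opposite directions were not computed.

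**Figure D1:**
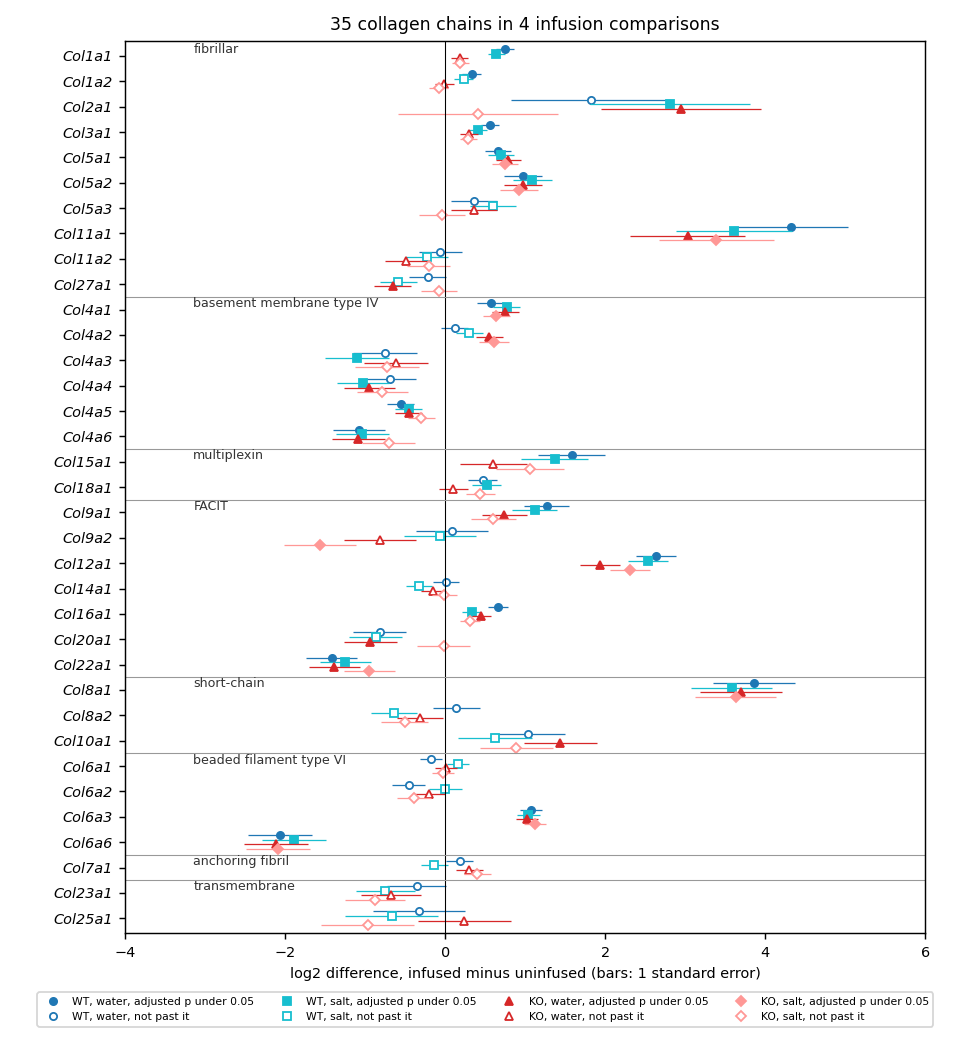
Log2 difference, infused minus uninfused, on the horizontal axis for the 35 tested collagen chains, grouped by class, in 4 comparisons; points are differences of group means of 3 arrays, bars are 1 standard error, and filled points have an adjusted p under 0.05. Col8a1 and Col12a1 lie at the right in all 4 comparisons, from 1.93 to 3.86, while Col6a6 and Col22a1 lie at the left, and Col4a1 and Col4a2 lie on the other side of 0 from Col4a3 to Col4a6.

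Among the short-chain collagens, Col8a1 encodes the alpha 1 chain of type VIII, a lattice-forming collagen of vessel walls made by smooth muscle and endothelial cells. Its probe lies at mm9 chr16:57624471-57624530 on the minus strand. Col8a1 in wild-type aorta stood at -3.33, -2.87 and -2.28 in controls and -2.53, -2.54 and -2.38 with salt, against 1.72, 2.03 and -0.66 with infusion and 1.32, 0.61 and 1.35 with salt and infusion. The knockout Col8a1 values were -2.14, -2.79 and -1.95 in controls and -2.20, -2.10 and -2.03 with salt, against 1.98, 1.76 and 0.49 with infusion and 1.66, 1.30 and 1.62 with salt and infusion. All 12 infused arrays lay above all 12 uninfused arrays, as for Col12a1, Col6a3 and Col5a1, a separation that 3.57% of all genes showed upward, 2.9% downward and 6.47% in either direction. The lowest infused value came from the third infusion-only array of the wild type. Col8a1 rose 14.5-fold in wild type on water, 13.0-fold in knockout on water, 11.9-fold in wild type on salt and 12.4-fold in knockout on salt. The mean log2 difference was 3.69 (SE 0.25, adjusted p 2.41e-09). With the third infusion-only array left out in both genotypes it was 4.02.

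Col8a2 encodes the other type VIII chain. Col8a2 in wild-type aorta stood at -1.39, -0.92 and -1.15 in controls and -1.05, -1.19 and -1.45 with salt, against -1.62, -0.62 and -0.78 with infusion and -1.74, -1.41 and -2.46 with salt and infusion. The knockout Col8a2 values were 0.25, -0.05 and 0.04 in controls and -0.15, 0.19 and 0.10 with salt, against -0.81, -0.22 and 0.31 with infusion and -0.18, -0.47 and -0.75 with salt and infusion. Infused and uninfused arrays overlapped except in knockout on salt, and the mean log2 difference was -0.33 with a 95% interval from -0.64 to -0.03 (adjusted p 0.059). Relative to its mean over uninfused arrays, the log2 ratio of Col8a1 to Col8a2 ran from -0.88 to 0.93 (median -0.11) on uninfused arrays and from 1.98 to 5.67 (median 4.06) on infused ones. Col10a1, the chain of the cartilage collagen type X, was near background. Col10a1 in wild-type aorta stood at -5.26, -5.63 and -6.14 in controls and -6.03, -5.78 and -5.45 with salt, against -4.84, -4.76 and -4.30 with infusion and -6.36, -4.48 and -4.56 with salt and infusion. The knockout Col10a1 values were -5.19, -5.95 and -6.70 in controls and -4.84, -5.88 and -4.29 with salt, against -4.62, -4.57 and -4.34 with infusion and -4.0, -3.76 and -4.58 with salt and infusion. It was well above background on 5 arrays, all of them infused, and on 0 of 12 uninfused ones. Against the floor described for Col11a1, its group mean was at least 1.04-fold higher with infusion in knockout on water (adjusted p 0.0247). In knockout on salt it was not called (adjusted p 0.165), and no fold is given there or in wild type. Its passing the filter through infused groups alone favoured a rise. The groups overlapped on salt but not on water. With normexp background correction the mean difference was 0.02 (adjusted p 0.749). Of the 9 chondrocyte markers listed, Matn1 and Cnmd were well above background on 0 of 24 arrays. In the mean of the 4 comparisons, where 58.8% of all genes were called, 2 of the 6 tested markers rose and 3 fell. The log2 of their summed linear signals ran from 6.16 to 6.44 in wild-type controls and from 4.82 to 5.60 with infusion. That sum weighs the brightest marker most, Cytl1, which ran from 5.54 to 6.44 on uninfused and from 4.13 to 5.57 on infused arrays. The dimmer Acan ran from -0.49 to 0.67 on uninfused and from 0.52 to 2.89 on infused arrays. The part of the chondrocyte markers in the collagen differences was not tested.

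**Figure D2:**
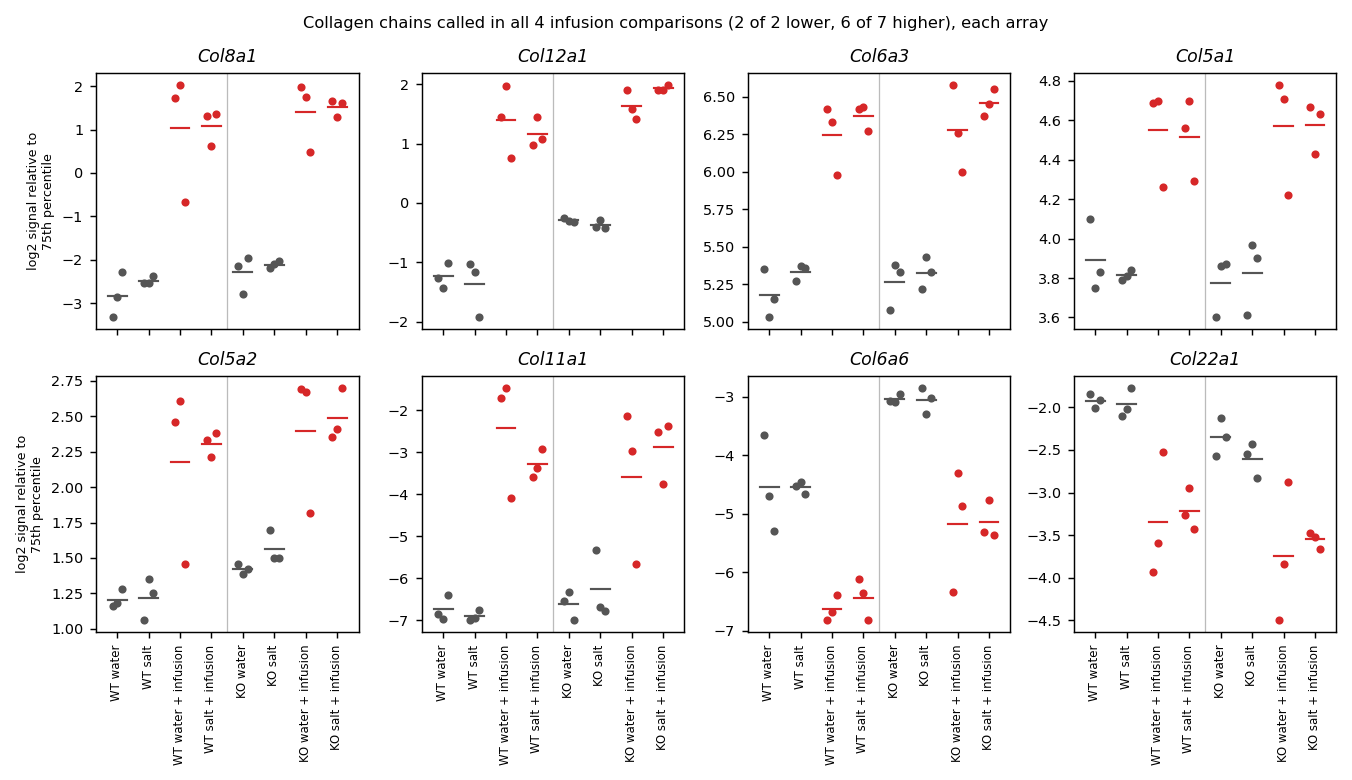
Log2 signal relative to the array's 75th percentile on each of the 24 arrays for Col8a1, Col12a1, Col6a3, Col5a1, Col5a2, Col11a1, Col6a6 and Col22a1; points are arrays, lines are means of 3 arrays, and the 8 groups stand on the horizontal axis. The 12 infused arrays lie above the 12 uninfused ones for Col8a1, Col12a1, Col6a3 and Col5a1, and the salt groups lie beside the groups without salt.

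Of the 10 tested fibrillar chains, 6 rose and 1 fell in the mean of the 4 infusion comparisons. Col1a1 and Col1a2 encode the chains of type I collagen, the main fibrillar collagen of the adventitia. Col1a1 in wild-type aorta stood at 6.81, 6.59 and 6.83 in controls and 6.80, 6.77 and 6.71 with salt, against 7.47, 7.68 and 7.33 with infusion and 7.44, 7.44 and 7.34 with salt and infusion. The knockout Col1a1 values were 6.82, 6.85 and 6.78 in controls and 6.55, 6.96 and 6.88 with salt, against 6.95, 6.95 and 7.09 with infusion and 6.93, 7.02 and 7.01 with salt and infusion. In wild type the infused arrays all lay above the uninfused ones, while in knockout they overlapped on salt. Col1a1 rose by a log2 difference of 0.75 in wild type on water (adjusted p 0.000224) and 0.64 on salt (adjusted p 0.00049). In knockout the differences were 0.18 (adjusted p 0.242) and 0.19 (adjusted p 0.218).

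The gap between genotypes in the Col1a1 response was tested directly. Knockout minus wild type, it was -0.57 on water with a 95% interval from -0.90 to -0.24 (p 0.00182), and -0.45 on salt with an interval from -0.78 to -0.13 (p 0.00939). After adjustment over all genes these p-values were 0.488 and 0.402, so neither passed. Col1a2 in wild-type aorta stood at 8.99, 8.67 and 9.12 in controls and 8.93, 8.93 and 8.97 with salt, against 9.18, 9.36 and 9.23 with infusion and 9.25, 9.28 and 9.0 with salt and infusion. The knockout Col1a2 values were 8.90, 8.75 and 8.77 in controls and 8.66, 8.91 and 8.75 with salt, against 8.70, 8.81 and 8.89 with infusion and 8.56, 8.77 and 8.76 with salt and infusion. Col1a2 did not overlap within the wild-type comparisons and overlapped in both of the knockout, and its mean difference was 0.12 with an interval from -0.01 to 0.24 (adjusted p 0.092). It was called higher in wild type on water alone. That call was lost without 5 of its 6 arrays in turn (adjusted p 0.0545 to 0.246) and under quantile normalisation (0.22, adjusted p 0.0934). The log2 ratio of Col1a1 to Col1a2, relative to uninfused arrays, had a median of -0.01 without and 0.33 with infusion, the ranges being -0.21 to 0.21 and 0.18 to 0.45.

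Col3a1 encodes type III collagen, which is mixed with type I in extensible tissue. Over the 12 uninfused arrays it ran from 7.30 to 7.65 (median 7.49), and over the 12 infused arrays from 7.64 to 8.16 (median 7.86). The ranges overlapped at their ends, and within each comparison the groups did not overlap. Col3a1 rose by a mean log2 difference of 0.39 (adjusted p 1.05e-05). It was called in wild type on water (0.56, adjusted p 0.00192) and on salt (0.41, adjusted p 0.0102), the latter losing its call without the first wild-type salt with infusion array (adjusted p 0.0568) and under quantile normalisation (0.13, adjusted p 0.429). In knockout the differences were 0.30 (adjusted p 0.0514) and 0.29 (adjusted p 0.0679).

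Col5a1 and Col5a2 encode the chains of type V collagen, which nucleates and limits the growth of type I fibrils. Col5a1 in wild-type aorta stood at 4.10, 3.75 and 3.83 in controls and 3.79, 3.81 and 3.84 with salt, against 4.69, 4.70 and 4.26 with infusion and 4.56, 4.70 and 4.29 with salt and infusion. The knockout Col5a1 values were 3.60, 3.86 and 3.87 in controls and 3.61, 3.97 and 3.90 with salt, against 4.78, 4.71 and 4.22 with infusion and 4.67, 4.43 and 4.63 with salt and infusion. All 12 infused arrays lay above all 12 uninfused ones. Col5a1 rose by 0.66, 0.79, 0.70 and 0.75 in wild type on water, knockout on water, wild type on salt and knockout on salt, with adjusted p from 0.00169 to 0.00712. Col5a2 in wild-type aorta stood at 1.16, 1.18 and 1.28 in controls and 1.06, 1.35 and 1.25 with salt, against 2.46, 2.61 and 1.46 with infusion and 2.33, 2.21 and 2.38 with salt and infusion. The knockout Col5a2 values were 1.46, 1.39 and 1.42 in controls and 1.70, 1.5 and 1.5 with salt, against 2.69, 2.67 and 1.82 with infusion and 2.35, 2.41 and 2.70 with salt and infusion. Every infused array lay above the uninfused arrays of its own comparison, the lowest being the third infusion-only array in both genotypes. Col5a2 rose by 0.97, 0.97, 1.09 and 0.92 in the same order, and its mean difference was 0.99 (SE 0.12, adjusted p 1.27e-06). Without the second wild-type infusion array the value on water in wild type was 0.76 and lost its call (adjusted p 0.0551). The third type V chain, Col5a3, had a mean difference of 0.32 (adjusted p 0.061).

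Col11a1 encodes a type XI chain, a minor fibrillar collagen best known from cartilage. Its probe lies at mm9 chr3:113923185-113923244. Col11a1 in wild-type aorta stood at -6.86, -6.96 and -6.40 in controls and -7.00, -6.94 and -6.75 with salt, against -1.71, -1.46 and -4.09 with infusion and -3.58, -3.36 and -2.92 with salt and infusion. The knockout Col11a1 values were -6.55, -6.32 and -6.98 in controls and -5.32, -6.69 and -6.78 with salt, against -2.14, -2.97 and -5.66 with infusion and -2.52, -3.75 and -2.36 with salt and infusion. It was well above background on 0 of 12 uninfused and on 11 of 12 infused arrays, the exception being the third knockout infusion array at -5.66. Against the lowest signal among probes well above background on each uninfused array, taken as a floor where it exceeded the probe's own signal, Col11a1 was at least 4.13-fold higher in wild type on water and at least 1.96-fold higher in knockout on water. On salt it was at least 2.53-fold higher in wild type and at least 4.04-fold higher in knockout. The adjusted p of these comparisons lay between 0.000535 and 0.00425. Its passing the filter through infused groups alone favoured a rise. Bounds of this kind concern group means and do not allow for the spread between arrays. With normexp background correction the wild type on salt lost its call (0.71, adjusted p 0.0595). The partner chain Col11a2 had a mean difference of -0.25 (adjusted p 0.129).

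Col2a1 encodes type II collagen of cartilage and was dim and scattered. Col2a1 in wild-type aorta stood at -2.05, -2.91 and -6.12 in controls and -4.59, -4.41 and -4.14 with salt, against -0.94, -2.55 and -2.14 with infusion and -0.71, -1.44 and -2.56 with salt and infusion. The knockout Col2a1 values were -6.41, -6.60 and -5.13 in controls and -2.79, -3.84 and -4.98 with salt, against -2.31, -4.99 and -1.99 with infusion and -2.19, -5.41 and -2.78 with salt and infusion. It was well above background on 6 uninfused and 10 infused arrays, the groups overlapped on water in wild type and on salt in knockout, and the spread within a group reached an SD of 2.15 (n = 3). Its passing the filter through infused wild-type groups alone favoured a rise. Col2a1 rose on water in knockout (at least 2.76-fold, adjusted p 0.0313) and on salt in wild type (7.01-fold, adjusted p 0.0376), and each call was lost without at least 4 of its 6 arrays in turn. The last tested fibrillar chain, Col27a1, fell by a mean of 0.39 (adjusted p 0.00762) and was called in knockout on water alone.

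The 6 type IV chains split: 2 rose and 4 fell. Col4a1 and Col4a2 form the network found in most basement membranes, while Col4a3 to Col4a6 form the networks known from kidney, lung, eye and, for Col4a5 and Col4a6, smooth muscle. Col4a1 in wild-type aorta stood at 5.18, 4.72 and 5.06 in controls and 4.70, 4.96 and 4.96 with salt, against 5.59, 5.62 and 5.48 with infusion and 5.61, 5.96 and 5.35 with salt and infusion. The knockout Col4a1 values were 4.46, 4.75 and 4.78 in controls and 4.67, 4.88 and 4.87 with salt, against 5.54, 5.13 and 5.57 with infusion and 5.20, 5.52 and 5.62 with salt and infusion. Within every comparison the infused arrays lay above the uninfused ones. Col4a1 rose by 0.57, 0.75, 0.77 and 0.64 in wild type on water, knockout on water, wild type on salt and knockout on salt (adjusted p 0.00275 to 0.0185). Without the second wild-type control array the first of these was 0.44 (adjusted p 0.0995), and it was lost as well without the first or second wild-type infusion array and under quantile normalisation (0.47, adjusted p 0.0621). The call in knockout on salt was lost with slide as a fixed block (0.40, adjusted p 0.269) or a random block (0.51, adjusted p 0.113) and without the third knockout array with salt and infusion (adjusted p 0.0564).

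Col4a2 in wild-type aorta stood at 4.83, 4.38 and 4.82 in controls and 4.59, 4.66 and 4.64 with salt, against 4.84, 4.64 and 4.92 with infusion and 4.84, 5.28 and 4.67 with salt and infusion. The knockout Col4a2 values were 3.66, 3.69 and 3.70 in controls and 3.59, 3.94 and 3.55 with salt, against 4.23, 3.98 and 4.49 with infusion and 4.12 and 4.48 with salt and infusion. The third knockout array with salt and infusion had no value, its spot being marked an outlier. Col4a2 rose in knockout on water (0.55, adjusted p 0.0232) and on salt (0.61, adjusted p 0.0289), and in wild type the differences were 0.12 (adjusted p 0.645) and 0.30 (adjusted p 0.19). Both knockout calls were lost under quantile normalisation (adjusted p 0.0675 and 0.0506) and with slide as a fixed block (0.42, adjusted p 0.0618, and 0.22, adjusted p 0.569). Leaving out arrays in turn ended the call on water for 5 of 6 arrays and that on salt for 3 of the 5 arrays with a value. Over all 4 comparisons Col4a2 rose by a mean of 0.39 (adjusted p 0.00103).

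Col4a6 in wild-type aorta stood at 5.16, 4.84 and 4.97 in controls and 4.98, 4.97 and 5.10 with salt, against 3.67, 3.36 and 4.70 with infusion and 4.11, 4.47 and 3.33 with salt and infusion. The knockout Col4a6 values were 4.75, 4.79 and 4.84 in controls and 4.82, 4.77 and 4.66 with salt, against 3.13, 3.45 and 4.52 with infusion and 3.89, 4.33 and 3.89 with salt and infusion. Within every comparison the infused arrays lay below the uninfused ones, and the third infusion-only arrays lay nearest to the controls. Col4a6 fell by a mean log2 difference of 0.98 (SE 0.17, adjusted p 5.36e-05), and its differences were -1.08, -1.09, -1.04 and -0.71 in wild type on water, knockout on water, wild type on salt and knockout on salt. The last was not called (adjusted p 0.121), and each of the other 3 was lost without at least 2 of its 6 arrays in turn. A second Col4a6 probe was called in knockout on salt (-0.81, adjusted p 0.0477) and on water (-1.05, adjusted p 0.011). In wild type it was called on salt (-0.91, adjusted p 0.0239) and not on water (-0.78, adjusted p 0.0553). Col4a5 fell by a mean of 0.44 (adjusted p 0.000226), from 3.77 to 4.32 (median 4.10) on uninfused to 3.15 to 4.12 (median 3.69) on infused arrays. Col4a3 fell by 0.80 (adjusted p 0.00226), with a median of -0.80 without and -1.62 with infusion. Col4a4 fell by 0.86 (adjusted p 0.000155), with medians of 1.26 and 0.48. Single-comparison calls of Col4a3, Col4a4 and Col4a5 were each lost without 3 to 5 of their 6 arrays in turn. The 2 other Col4a4 probes were called lower on salt in wild type (-1.49, adjusted p 0.0037, and -1.08, adjusted p 0.0302). On salt in knockout they were called as well (-1.08, adjusted p 0.028, and -1.11, adjusted p 0.0318). On water 1 of them was called in knockout (-1.05, adjusted p 0.0266) and neither in wild type.

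**Figure D3:**
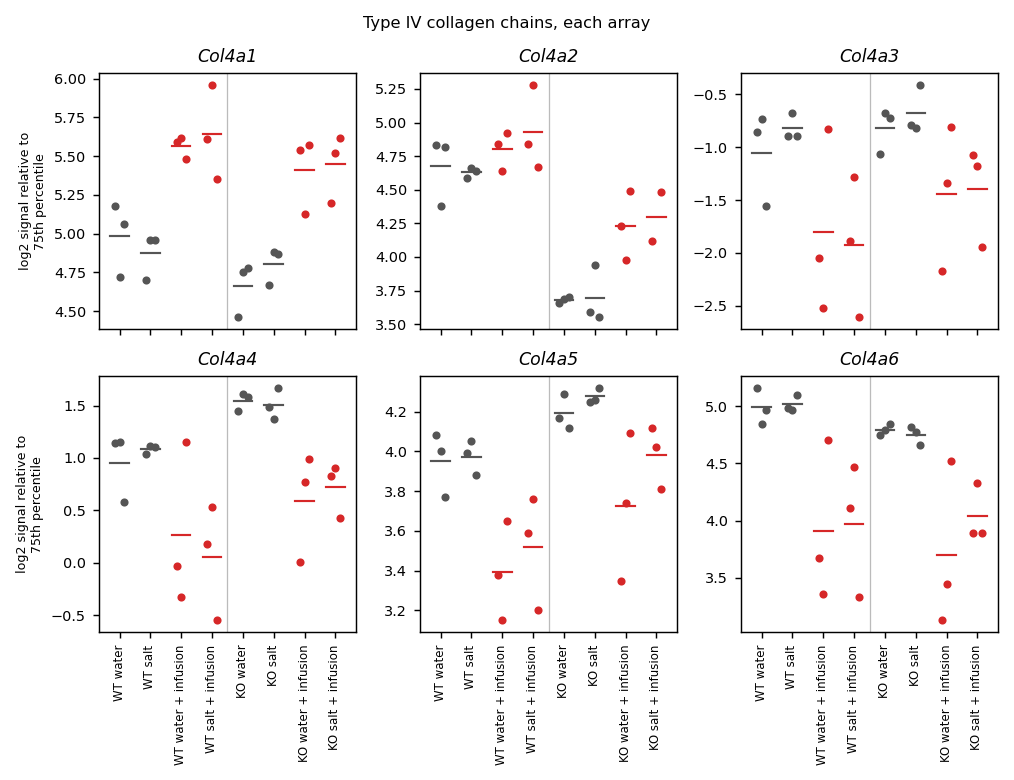
Log2 signal relative to the array's 75th percentile on each of the 24 arrays for the 6 type IV chains; points are arrays, lines are group means, and infused groups are drawn in red. Col4a1 is higher and Col4a6 lower on infused than on uninfused arrays of the same genotype and water, and Col4a2 is lower in knockout than in wild type.

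Summed over the 8 smooth muscle markers, the log2 level ran from 11.15 to 11.51 in wild-type controls and from 10.97 to 11.20 with infusion. In knockout it ran from 10.75 to 10.99 in controls and from 10.35 to 10.93 with infusion. Of the 8 markers 0 rose and 5 fell in the mean of the 4 comparisons, and of the 8 fibroblast markers 0 rose and 6 fell. For these and the macrophage counts below, 58.8% of all genes were called (27.4% higher and 31.4% lower). Summed over fibroblast markers, levels ran from 9.0 to 9.31 in wild-type controls and 8.44 to 8.90 with infusion, and from 9.35 to 9.58 and 8.89 to 9.24 in knockout. Of 7 macrophage markers 6 rose and 0 fell, their sum running from 7.21 to 7.62 in wild-type controls and 7.60 to 7.82 with infusion, and from 6.75 to 6.90 and 7.03 to 7.39 in knockout. Each of these sums is of linear signals, so the brightest markers weigh most, such as Acta2 and Tagln, Dcn, and Itgam for macrophages. Itgam ran from 5.64 to 7.27 on uninfused and from 5.51 to 7.39 on infused arrays. The part of all these markers in the collagen differences was not tested.

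The 2 multiplexins, basement membrane proteins that carry sugar chains, both rose in the mean. Col15a1 in wild-type aorta stood at 0.39, -0.02 and 1.41 in controls and 0.64, 0.39 and 0.99 with salt, against 1.77, 2.33 and 2.42 with infusion and 2.56, 2.34 and 1.22 with salt and infusion. The knockout Col15a1 values were -0.84, -0.83 and -0.64 in controls and -0.78, -0.62 and -0.94 with salt, against 0.02, -0.97 and 0.46 with infusion and -0.54, 0.56 and 0.80 with salt and infusion. Col15a1 groups did not overlap in either wild-type comparison, and overlapped on water in knockout. Col15a1 rose in wild type on water (1.58, adjusted p 0.0102) and on salt (1.37, adjusted p 0.0182), and the differences in knockout were 0.60 (adjusted p 0.3) and 1.06 (adjusted p 0.0707). Leaving out the second control or second infusion array ended the call on water (adjusted p 0.0501 to 0.0584). The call on salt was lost without the second salt array or without the first or second array with salt and infusion (adjusted p 0.0527 to 0.0828). The gene's other probes, with adjustment over kept probes, gave 0.57 (adjusted p 0.0909) and 0.64 (adjusted p 0.036) in wild type on water. On salt in wild type they gave 1.03 (adjusted p 0.00421) and 0.94 (adjusted p 0.00353). In knockout on water they gave 0.36 (adjusted p 0.285) and 0.35 (adjusted p 0.231). In knockout on salt both were called (0.84, adjusted p 0.0169, and 1.05, adjusted p 0.00207). Col18a1, the source of the fragment endostatin, rose by a mean of 0.38 (adjusted p 0.00134). A second Col18a1 probe gave -0.08, and quantile normalisation gave 0.20 (adjusted p 0.11).

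Of the 7 tested FACIT chains 3 rose and 3 fell. Col12a1 encodes type XII collagen, which binds type I fibrils in tendon, ligament and healing tissue. Its probe lies at mm9 chr9:79446895-79446954 on the minus strand. Col12a1 in wild-type aorta stood at -1.26, -1.43 and -1.01 in controls and -1.03, -1.16 and -1.93 with salt, against 1.45, 1.97 and 0.76 with infusion and 0.98, 1.45 and 1.08 with salt and infusion. The knockout Col12a1 values were -0.25, -0.31 and -0.32 in controls and -0.41, -0.29 and -0.42 with salt, against 1.91, 1.58 and 1.41 with infusion and 1.91, 1.91 and 1.99 with salt and infusion. All 12 infused arrays lay above all 12 uninfused ones. Col12a1 rose 6.18-fold in wild type on water, 3.81-fold in knockout on water, 5.83-fold in wild type on salt and 4.95-fold in knockout on salt, and the mean log2 difference was 2.35 (SE 0.12, adjusted p 3.17e-10).

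Col22a1 encodes type XXII collagen, known from tissue junctions such as those between muscle and tendon. Col22a1 in wild-type aorta stood at -1.84, -2.01 and -1.91 in controls and -2.10, -2.02 and -1.77 with salt, against -3.93, -3.59 and -2.52 with infusion and -3.26, -2.95 and -3.43 with salt and infusion. The knockout Col22a1 values were -2.57, -2.12 and -2.35 in controls and -2.55, -2.43 and -2.83 with salt, against -4.50, -3.84 and -2.88 with infusion and -3.47, -3.52 and -3.66 with salt and infusion. Within every comparison the infused arrays lay below the uninfused ones, and 1 infused array was not well above background. Col22a1 fell by a mean of 1.25 (SE 0.16, adjusted p 3.19e-06), with differences of -1.42, -1.39, -1.25 and -0.95 in wild type on water, knockout on water, wild type on salt and knockout on salt. The last (adjusted p 0.0394) was lost without any of its 6 arrays in turn, with adjusted p from 0.0541 to 0.113. A second Col22a1 probe, well above background on 8 arrays, was called in wild type on salt (-2.31, adjusted p 0.00136). It gave -0.59 in wild type on water (adjusted p 0.376). In knockout it gave -1.12 on water (adjusted p 0.0711) and -1.12 on salt (adjusted p 0.0794). Col20a1 fell by a mean of 0.66 (adjusted p 0.00216), its difference being -0.02 in knockout on salt and between -0.94 and -0.82 elsewhere.

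Col9a1 and Col9a2 encode chains of the cartilage collagen type IX and lay near background. Col9a1 in wild-type aorta stood at -3.98, -4.22 and -4.42 in controls and -4.79, -3.78 and -4.19 with salt, against -2.83, -2.98 and -3.00 with infusion and -2.88, -3.14 and -3.37 with salt and infusion. The knockout Col9a1 values were -3.74, -4.22 and -3.90 in controls and -3.55, -4.46 and -3.84 with salt, against -2.94, -3.08 and -3.61 with infusion and -2.90, -3.31 and -3.84 with salt and infusion. Groups did not overlap except on salt in knockout. Col9a1 rose by a mean of 0.93 (adjusted p 1.4e-05). It was called in wild type on water (1.27, adjusted p 0.00328), in wild type on salt (1.12, adjusted p 0.00562) and in knockout on water (0.74, adjusted p 0.0494), and with normexp background correction in none of these. Col9a2 fell by a mean of 0.59 (adjusted p 0.0305), a call that was lost without 6 of 24 arrays in turn and rested on the knockout on salt (-1.57, adjusted p 0.0166). Leaving out the second knockout salt array or the third knockout array with salt and infusion ended that call (adjusted p 0.067 to 0.0687). Col16a1, a FACIT of connective tissue, rose by a mean of 0.44 (adjusted p 8.58e-06). Col14a1, a fibril-associated collagen that limits fibril growth, had a mean difference of -0.12 (adjusted p 0.19). A second Col14a1 probe fell by 0.60 (adjusted p 2.82e-05).

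Of the 4 tested type VI chains 1 rose and 2 fell. The classical type VI monomer joins Col6a1, Col6a2 and a further chain, for which Col6a3 is the common choice and Col6a6 a related one. Col6a3 was probed at mm9 chr1:92663663-92663722 on the minus strand. Col6a3 in wild-type aorta stood at 5.35, 5.03 and 5.15 in controls and 5.27, 5.37 and 5.36 with salt, against 6.42, 6.33 and 5.98 with infusion and 6.42, 6.43 and 6.27 with salt and infusion. The knockout Col6a3 values were 5.08, 5.38 and 5.33 in controls and 5.22, 5.43 and 5.33 with salt, against 6.58, 6.26 and 6.00 with infusion and 6.37, 6.45 and 6.55 with salt and infusion. All 12 infused arrays lay above all 12 uninfused ones, with a gap from 5.43 to 5.98. Col6a3 rose 2.09-fold, 2.03-fold, 2.06-fold and 2.18-fold in wild type on water, knockout on water, wild type on salt and knockout on salt, a mean log2 difference of 1.06 (SE 0.07, adjusted p 2.03e-09).

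Col6a1 in wild-type aorta stood at 6.37, 6.07 and 6.31 in controls and 6.14, 6.14 and 6.08 with salt, against 6.12, 5.80 and 6.31 with infusion and 6.28, 6.51 and 6.05 with salt and infusion. The knockout Col6a1 values were 6.19, 6.33 and 6.24 in controls and 6.28, 6.45 and 6.29 with salt, against 6.14, 6.18 and 6.45 with infusion and 6.20, 6.31 and 6.40 with salt and infusion. Infused and uninfused arrays overlapped for Col6a1, and its mean difference was -0.01 with a 95% interval from -0.15 to 0.13 (adjusted p 0.911). Col6a2 in wild-type aorta stood at 4.02, 3.67 and 3.63 in controls and 3.64, 3.77 and 3.56 with salt, against 3.47, 2.81 and 3.67 with infusion and 3.52, 4.04 and 3.41 with salt and infusion. The knockout Col6a2 values were 3.10, 3.49 and 3.35 in controls and 3.48, 3.67 and 3.36 with salt, against 2.79, 3.11 and 3.41 with infusion and 2.98, 3.09 and 3.29 with salt and infusion. Col6a2 groups overlapped except in knockout on salt. It fell by a mean of 0.26 (adjusted p 0.0393), a call lost without 14 of the 24 arrays in turn and with slide as a block. The log2 ratio of Col6a3 to Col6a1, relative to uninfused arrays, ran from -0.19 to 0.25 without infusion and from 0.52 to 1.5 with it, so the infused ratios lay above all uninfused ones.

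Col6a6 in wild-type aorta stood at -3.66, -4.69 and -5.29 in controls and -4.52, -4.46 and -4.66 with salt, against -6.81, -6.67 and -6.39 with infusion and -6.11, -6.36 and -6.82 with salt and infusion. The knockout Col6a6 values were -3.07, -3.09 and -2.96 in controls and -2.85, -3.29 and -3.02 with salt, against -6.33, -4.30 and -4.87 with infusion and -5.31, -4.77 and -5.36 with salt and infusion. Within every comparison the infused arrays lay below the uninfused ones. Col6a6 was well above background on 7 of 12 uninfused arrays (all 6 of the knockout and 1 of the wild type) and on 0 of 12 infused ones. It was at least 2.79-fold lower with infusion in knockout on water and at least 3.94-fold lower on salt, and at least 1.58-fold lower in wild type on water. In wild type on salt both groups were below background and no fold is given. Over the 4 comparisons its adjusted p was 1.26e-07. It passed the filter through uninfused knockout groups alone, which favoured a fall. With normexp background correction the wild-type comparisons were no longer called (-0.28, adjusted p 0.0974, and -0.22, adjusted p 0.199). A second Col6a6 probe, well above background on 8 arrays, was not called in knockout on water (-0.81, adjusted p 0.0924). It was called in wild type on water (-1.28, adjusted p 0.0142) and on salt (-1.56, adjusted p 0.00352). In knockout on salt it was called as well (-1.58, adjusted p 0.0041).

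**Figure D4:**
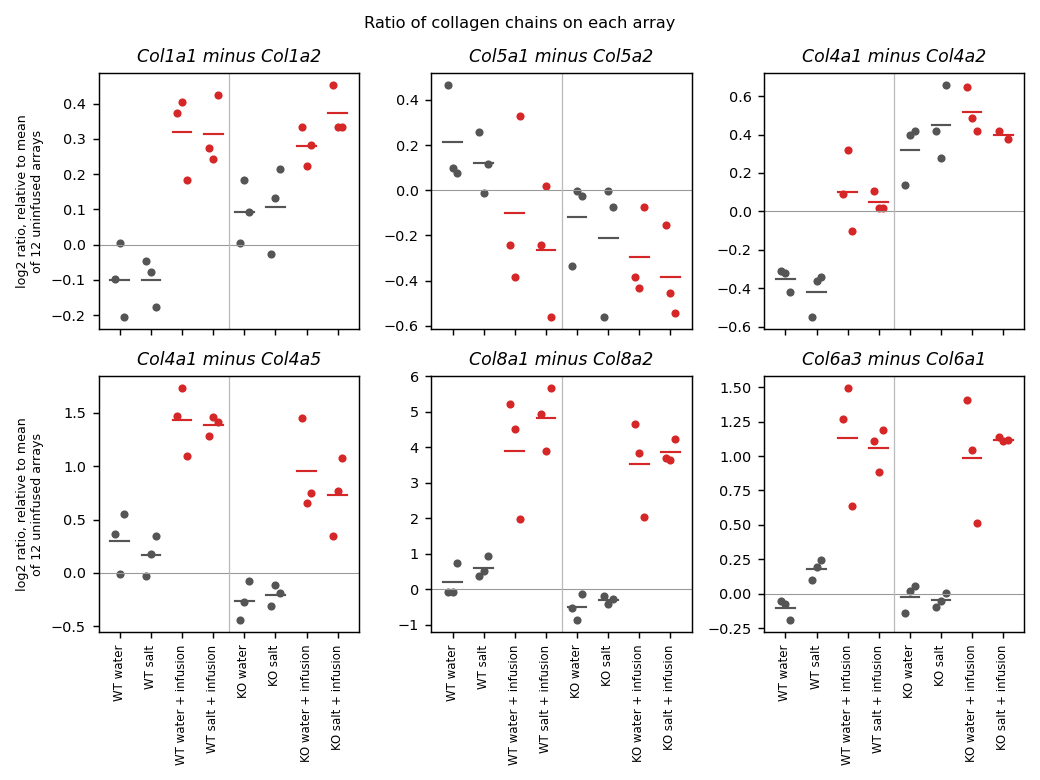
Log2 ratio of collagen chains on each array, relative to the mean of the 12 uninfused arrays, for 5 pairs of partners and for Col4a1 with Col4a5, which belong to different networks; points are arrays and no test was run on the ratios. Ratios of Col8a1 to Col8a2 run from 1.98 to 5.67 on infused arrays and from -0.88 to 0.93 on uninfused ones, and those of Col6a3 to Col6a1 separate in the same way.

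Other ratios overlapped between infused and uninfused arrays. The ratio of Col4a1 to Col4a5, chains of different type IV networks, ran from -0.44 to 0.56 (median -0.05) without and from 0.35 to 1.74 (median 1.19) with infusion. That of Col4a1 to Col4a2 ran from -0.55 to 0.66 (median -0.09) and, over 11 infused arrays, from -0.10 to 0.65 (median 0.32). That of Col5a1 to Col5a2 ran from -0.56 to 0.47 and from -0.56 to 0.33, the median being -0.31 with infusion. A ratio within an array shows unequal change of the 2 chains and does not say which moved. Of the remaining tested chains, the membrane-bound Col23a1 fell by a mean of 0.67 (adjusted p 0.00452). The anchoring fibril chain Col7a1 had a mean difference of 0.19 (adjusted p 0.0663) and the transmembrane Col25a1 of -0.43 (adjusted p 0.212).

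Slide and infusion were partly confounded, and this weighed most on the wild type on water. With slide as a fixed block, 19 of the 27 chains called in the mean of the 4 comparisons were still called, where 45.6% of all genes were called. The mean differences were 4.03 for Col8a1, 2.51 for Col12a1, 1.26 for Col6a3, 1.01 for Col5a1, 1.24 for Col5a2, 0.75 for Col4a1 and -1.58 for Col22a1. The 8 lost were Col10a1, Col18a1, Col23a1, Col27a1, Col2a1, Col4a3, Col6a2 and Col9a2. The blocked fit linked the knockout slides only through the infusion-only group, whose replicate 3 lay on another slide than replicates 1 and 2. It linked the wild-type slides only through salt with infusion, split in the same way. Its values for wild type on water and knockout on salt, and so its means, rest on those replicate 3 arrays. The knockout one stood apart from its group, and how far it set these values was not tested. In wild type on water 6 of 17 calls were left with that block, where 1.12% of all genes were called: Col12a1 (2.76, adjusted p 0.0101), Col6a3 (1.22, adjusted p 0.0211), Col16a1, Col15a1, Col1a1 (0.85, adjusted p 0.0462) and Col3a1 (0.86, adjusted p 0.0391). Col8a1 was at 3.47 (adjusted p 0.0654), Col22a1 at -1.10 (adjusted p 0.26), Col4a5 at -0.08 (adjusted p 0.89) and Col4a6 at -0.12 (adjusted p 0.91). Within the slide that held both groups, Col8a1 differed by 4.16 in knockout on water and 3.45 in wild type on salt, Col12a1 by 2.04 and 2.59, Col6a3 by 1.16 and 1.09, and Col4a6 by -1.50 and -0.73. In wild type on salt the fit with slide as a fixed block ended all 4 calls of lower type IV chains: Col4a6 at -0.73 (adjusted p 0.0552), Col4a5 at -0.30 (adjusted p 0.149), Col4a4 at -0.72 (adjusted p 0.11) and Col4a3 at -0.77 (adjusted p 0.169). No slide held both groups for wild type on water or knockout on salt.

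Genes that act on collagen chains were described from fixed lists. Of 30 tested genes for collagen folding, modification and trimming, 21 rose and 4 fell in the mean of the 4 comparisons, with a median difference of 0.51, and 58.8% of all genes were called there. The 4 of smallest p were Plod2, a lysyl hydroxylase (1.15, adjusted p 3.24e-09), Fkbp10, an endoplasmic reticulum prolyl isomerase (0.93, adjusted p 1.38e-08), Serpinh1, the collagen chaperone Hsp47 (0.71, adjusted p 1.72e-08), and P4ha2, a prolyl hydroxylase subunit (0.61, adjusted p 2.69e-08). The members that fell were Pcolce2, P3h3, Adamts2 and Tmem38b. By comparison 13 rose and 2 fell in wild type on water, 15 and 2 in knockout on water, 17 and 2 in wild type on salt, and 16 and 3 in knockout on salt, against 26%, 30.7%, 32.9% and 25.2% of all genes called in either direction.

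Of 17 tested genes for fibril-associated matrix proteins, 4 rose and 6 fell, with a median of -0.19, a share called that equals the 58.8% of all genes. Cthrc1, a secreted collagen triple helix repeat protein, rose by 4.80 (adjusted p 1.72e-08), from -3.42 to -2.18 on uninfused to -0.32 to 2.97 on infused arrays. Tnc, tenascin C, rose by 1.74 (adjusted p 3.75e-08) and Fn1, fibronectin, by 0.73 (adjusted p 5.38e-09). Ogn, the small leucine-rich proteoglycan osteoglycin, fell by 1.72 (adjusted p 6.96e-08). Of 13 collagen receptor genes 5 rose and 5 fell, with a median of -0.16, against the same 58.8%. Antxr1, a receptor for collagen, fell by 1.29 (adjusted p 3.09e-09) and the discoidin domain receptor Ddr2 by 0.75 (adjusted p 2.69e-07). Cd44 rose by 1.43 (adjusted p 1.3e-06) and the leukocyte collagen receptor Lair1 by 0.75 (adjusted p 1.77e-06).

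Salt was compared in each genotype, without and with infusion, and the groups compared are also part of the infusion comparisons. In all 4 salt comparisons 0 of the 35 chains were called by limma, as were 0% of all genes. At an unadjusted p under 0.05 there were 0 chains in wild type without infusion, 2 in knockout without infusion, 2 in wild type under infusion and 2 in knockout under infusion. Over all genes that share was 2.11%, 3.04%, 5.75% and 4.53%. The median difference over the chains was 0.02, 0.01, -0.09 and 0.07 in that order. Of 35 intervals at 95%, 27, 28, 26 and 25 lay within 1 log2 unit of 0 on both sides, so a change of more than a factor of 2 lay outside them for those chains.

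Among the chains that infusion changed, salt with infusion minus infusion alone gave Col8a1 0.07 in wild type (95% interval -1.0 to 1.13) and 0.11 in knockout (-0.95 to 1.18). Col1a1 gave -0.09 (-0.32 to 0.15) in wild type and -0.01 in knockout, and Col6a3 gave 0.13 and 0.17. The chains of smallest p were Col8a2 in wild type under infusion (-0.86, p 0.00867, adjusted p 0.806) and Col9a2 in knockout without infusion (1.38, p 0.00653, adjusted p 1). Without the third knockout infusion array 1 chain, Col20a1, was called under infusion in knockout, where 0.392% of all genes were called. With slide as a fixed block 1.13% of all genes were called there. In knockout the arrays with salt and infusion lay on another slide than the first and second infusion arrays. In wild type the infusion arrays lay on another slide than the first and second arrays with salt and infusion. The response to infusion on salt minus that on water, tested in wild type, gave 0 of 35 chains called and 0 at an unadjusted p under 0.05 (4.54% of all genes), with a smallest adjusted p of 0.919. The response in knockout minus that in wild type gave 0 chains on water and 0 on salt by limma (0% and 0.0724% of all genes), with 1 and 3 at an unadjusted p under 0.05 (6.55% and 8.95% of all genes).

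Knockout and wild type were compared in controls and under salt with infusion, 2 comparisons that share no arrays. Since no slide held both genotypes, genotype and slide cannot be told apart, and every value of this comparison carries that limit. In controls 6 chains were higher and 6 lower in knockout, where 37.1% of all genes were called (14.3% higher and 22.7% lower). Under salt with infusion 6 were higher and 7 lower, against 28.5% of all genes (10.6% and 17.9%). The split moved with scaling. By quantile normalisation it was 8 and 5 in controls and 7 and 4 under salt with infusion, where 36.1% and 25.4% of all genes were called. By normexp background correction it was 5 and 8 in controls and 7 and 13 under salt with infusion. Of all genes 43.9% and 50.1% were called by that correction. Of the chains called, 11 were called in the same direction in both comparisons and 0 in opposite directions. The share of all genes called alike in both was not computed, so this count does not set the chains apart from other genes. With slide as a random block 3 chains were left in controls (Col14a1, Col16a1 and Col8a2) and 4 under salt with infusion (Col14a1, Col16a1, Col18a1 and Col5a3). Of all genes 8.37% and 9.98% were then called, so the collagen counts lay near that share.

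Higher in knockout were Col5a3, Col8a2, Col6a6, Col12a1, Col14a1 and Col16a1 in both comparisons. Col5a3, the third type V chain, stood in controls at -1.29, -1.04 and -0.88 in wild type and 0.14, 0.67 and 0.59 in knockout. Under salt with infusion it stood at -1.08, -0.92 and -0.85 in wild type and 1.14, 0.17 and 0.03 in knockout. The groups did not overlap, and the differences were 1.54 (SE 0.29, adjusted p 0.00042) and 1.40 (SE 0.29, adjusted p 0.00152). Col8a2, whose arrays are given above, differed by 1.23 (SE 0.29, adjusted p 0.00299) and 1.40 (SE 0.29, adjusted p 0.00178). Col6a6 was called higher in controls (adjusted p 0.00626), where it was well above background on 3 of 3 knockout and 1 of 3 wild-type arrays. It passed the filter through knockout groups alone, which favoured that direction, and with normexp background correction the difference was 0.19 (adjusted p 0.213). Under salt with infusion both of its groups were below background, so no fold is given there, and normexp background correction turned its sign (-0.39, adjusted p 0.0114).

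Col14a1 in controls stood at 4.56, 4.47 and 4.33 in wild type and 5.30, 5.24 and 5.26 in knockout, and under salt with infusion at 4.43, 4.25 and 3.88 in wild type and 5.06, 5.38 and 5.10 in knockout. Its groups did not overlap, with differences of 0.81 (adjusted p 0.000596) and 0.99 (adjusted p 0.000169). Col16a1 in controls stood at 3.12, 3.40 and 3.18 in wild type and 3.97, 4.0 and 4.14 in knockout, and under salt with infusion at 3.80, 3.65 and 3.31 in wild type and 4.42, 4.37 and 4.50 in knockout. The knockout arrays lay above all wild-type ones, with differences of 0.81 (adjusted p 6.89e-05) and 0.85 (adjusted p 8.04e-05). Col12a1 differed by 0.94 (adjusted p 0.00611) and 0.77 (adjusted p 0.0266), the second being lost without 5 of its 6 arrays in turn.

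Lower in knockout in both comparisons were Col4a2, Col15a1, Col18a1, Col9a2 and Col25a1. Col4a2, a basement membrane chain, differed by -0.99 in controls (SE 0.17, adjusted p 0.000269) and -0.63 under salt with infusion (adjusted p 0.0224). The second call was lost without the first knockout or the second wild-type array with salt and infusion (adjusted p 0.107 to 0.214). Its partner Col4a1 differed by -0.33 (adjusted p 0.137) and -0.20 (adjusted p 0.407). Col15a1 differed by -1.37 (SE 0.42, adjusted p 0.0154) and -1.77 (SE 0.42, adjusted p 0.00427), the first being lost without the third wild-type control array (adjusted p 0.106). Col18a1 stood in controls at 7.34, 7.11 and 7.37 in wild type and 6.71, 6.68 and 6.49 in knockout, and under salt with infusion at 7.69, 8.01 and 7.64 in wild type and 6.72, 7.31 and 7.24 in knockout. Its groups did not overlap, and it differed by -0.65 (adjusted p 0.00909) and -0.69 (adjusted p 0.00861). The second call was lost by quantile normalisation (-0.43, adjusted p 0.138) and without the first knockout array with salt and infusion (adjusted p 0.0661).

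Col9a2 stood in controls at -3.88, -3.46 and -3.31 in wild type and -5.21, -5.01 and -4.29 in knockout, and under salt with infusion at -3.72, -3.16 and -3.61 in wild type and -4.73, -4.99 and -5.36 in knockout. The knockout arrays lay below the wild-type ones, with differences of -1.28 (SE 0.45, adjusted p 0.0323) and -1.53 (SE 0.45, adjusted p 0.017). Both calls were lost by quantile normalisation (adjusted p 0.168 and 0.0647). Col25a1, a transmembrane chain known from neurons, stood in controls at -2.90, -3.46 and -3.11 in wild type and -4.37, -4.48 and -5.36 in knockout, and under salt with infusion at -4.15, -3.28 and -3.84 in wild type and -6.73, -6.20 and -4.79 in knockout. It was well above background on 0 of those 6 knockout arrays and on 5 of the 6 wild-type ones, and was at least 2.61-fold lower in controls (adjusted p 0.0403) and at least 2.53-fold lower under salt with infusion (adjusted p 0.0106). The filter, passed through wild-type groups alone, favoured a lower knockout value. The first call was lost without any of its 6 arrays in turn, and the second without the first knockout array with salt and infusion (adjusted p 0.0676).

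Called in controls alone, Col7a1, the chain of anchoring fibrils, stood at -0.98, -1.23 and -1.09 in wild type and -2.28, -2.25 and -1.85 in knockout. The groups did not overlap and the difference was -1.03 (SE 0.17, adjusted p 0.000125). Under salt with infusion it stood at -1.12, -0.97 and -1.31 in wild type and -1.55, -1.66 and -1.47 in knockout, a difference of -0.43 (adjusted p 0.0651). The type I chains were called under salt with infusion alone, Col1a1 at -0.42 (adjusted p 0.0092) and Col1a2 at -0.48 (adjusted p 0.00581), and in controls differed by 0.07 and -0.12. Quantile normalisation gave Col1a1 -0.19 (adjusted p 0.263) and turned Col1a2 to 0.27 (adjusted p 0.052). Of the 8 fibroblast markers 3 were higher and 0 lower in knockout in each comparison, and of the 8 smooth muscle markers 0 were higher and 2 and 4 lower. The shares called were 37.5% and 37.5% of fibroblast and 25% and 50% of smooth muscle markers. Of all genes 37.1% and 28.5% were called (14.3% and 10.6% higher, 22.7% and 17.9% lower). The part of these markers in the collagen differences was not tested.

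**Figure D5:**
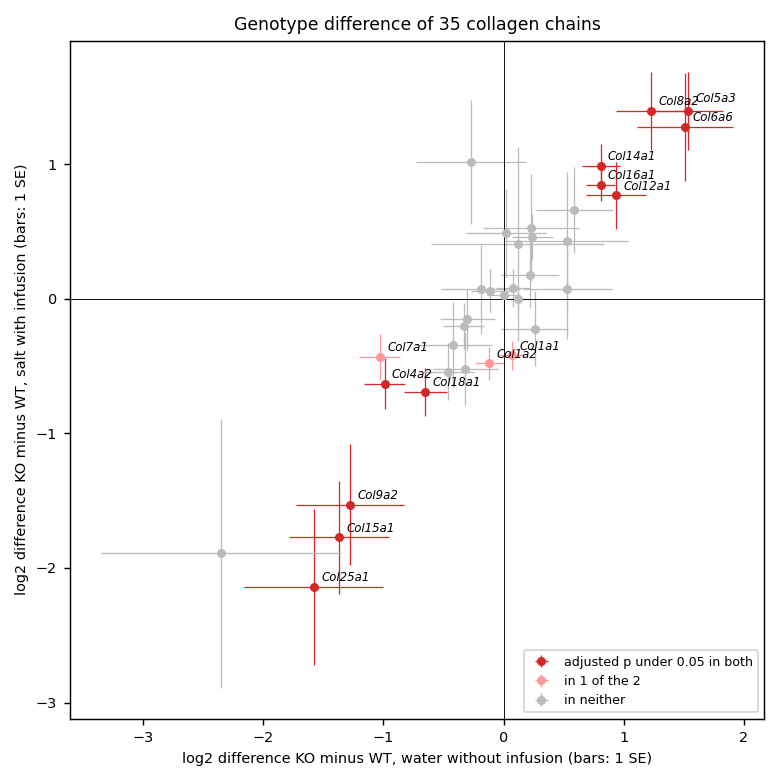
Log2 difference, knockout minus wild type, in controls (horizontal axis) and under salt with infusion (vertical axis) for the 35 tested collagen chains; points are chains and bars are 1 standard error. Col5a3, Col8a2 and Col6a6 lie at the upper right and Col25a1, Col15a1 and Col9a2 at the lower left, with the uncalled Col2a1 farthest left at -2.35 and -1.89, and slide differs with genotype on both axes.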

How the data were processed

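Cy3-labelled RNA of aorta was hybridised to 24 one-colour Agilent mouse arrays. Per the file headers, the authors extracted intensity values with Feature Extraction 10.7.1.1 (9.5.1.1 per the submitters' processing notes), background-subtracted and detrended within an array, with probe positions on mm9. The authors' deposited table of processed intensity values is linear, was normalised between arrays (column median 30.982 in every array, lowest rank correlation with scanner values 0.99997) and served as an alternative. Its sorted columns were identical in 89.27% of rows. Its remaining steps are not given in the sources used here.

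Control spots and 2910 spots marked as outliers were dropped, and repeated spots of a probe averaged. Values are log2 of the deposited intensity minus each array's 75th percentile over spots (269 to 769 in linear units). Of 55681 probes 33377 were kept, if some group had the probe well above background on each of its 3 arrays and every group had at least 2 values. The brightest probe of a gene, chosen before this filter, stood for it, and the gene was left out where that probe failed. Probes were named by RefSeq accession (27235) or kept the file's name (3581 with a symbol that RefSeq holds, 24865 with another). Group means of all 24 arrays were fitted in limma 3.58.1 (R 4.3.3, lmFit and eBayes), with Benjamini-Hochberg adjustment over 23477 genes and a threshold of 0.05, and the procedure was tested on simulated data. Promoters were searched with Python 3.11.15.

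Full statistics went to at most 8 members per comparison, those with the largest log2 change among called members whose groups did not overlap. Values on every array went to the first 12 by mean infusion change, to partner chains of one collagen type and to members called between genotypes. Listed processing, matrix and receptor genes are given by counts and up to 4 genes of smallest p. Members, lists and tests were chosen with earlier results of these data known. Alternatives were the background correction, normalisation, filter, probe choice, slide as a block, replicate number as a block, the arrays fitted and leaving out each array. Exon and UTR positions of the probes were not used here.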

Additional observations from a re-analysis of the deposited data

How the results depend on the processing

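Counts of called chains are given here for settings that moved them by over 1.5 times. For wild type on water (17 chains), slide as a fixed block gave 6, slide as a random block 10 and a fit of only the groups compared 7. Of all genes 1.12%, 3.28% and 5.29% were then called, against 26% in the main fit. For knockout on water (19) only the groups compared gave 5 (Col12a1, Col27a1, Col6a3, Col6a6 and Col8a1). Of all genes 10.3% were then called, against 30.7% in the main fit. Probes well above background on all 24 arrays gave 12, where 36.7% of all genes were called. For knockout on salt (11) those probes gave 6, where 29.8% of all genes were called, against 25.2% in the main fit. Only 24 chains have such probes. Of their calls in the main fit, 11 of 11 were kept in knockout on water and 6 of 6 in knockout on salt. For genotype, slide as a random block gave 3 in controls (12) and 4 under salt with infusion (13). Of all genes 8.37% and 9.98% were then called, against 37.1% and 28.5% in the main fit. Normexp background correction gave 20 under salt with infusion, where 50.1% of all genes were called. Salt under infusion in knockout gave 1 (Col20a1) without the third infusion-only arrays, where 1.7% of all genes were called, and 0 in the main fit. Leaving out 1 array in turn gave 11 to 20 chains in wild type on water, 10 to 18 in knockout on water, 13 to 18 in wild type on salt, 8 to 13 in knockout on salt, 25 to 30 in the mean of the 4, 10 to 11 and 9 to 13 for genotype, 0 to 1 for salt under infusion in knockout, and 0 for the other salt comparisons and differences of response. The counts that moved by over 1.5 times came, in knockout on water, without any of the 3 knockout controls (12, 11 and 12) or without the first knockout infusion array (10), in wild type on water without the second wild-type infusion array (11), and in wild type on salt without the third wild-type salt array (13). Of all genes 23.2%, 22.8%, 23.6%, 16.9%, 11.4% and 21.7% were called without these arrays, in that order. All other settings stayed within 1.5 times, and over all alternatives the mean of the 4 gave 19 to 30. Calls reversed for Col1a2 between genotypes under salt with infusion, at 0.27 by quantile normalisation and 0.26 with the authors' values, and for Col6a6 there, at -0.39 by normexp. The cause was not tested in these cases. Same-numbered arrays did not deviate together in every pair of any comparison, so the numbers were not taken to pair the samples. With replicate number as a block, 16, 18, 18 and 11 chains were called with infusion in wild type on water, knockout on water, wild type on salt and knockout on salt, 26 in the mean of the 4 (Col6a2 lost), 11 and 13 between genotypes, and 0 for salt and for differences of response. Of all genes 24.1%, 28.9%, 31.5% and 23.7% were called by that block with infusion, 58.3% in the mean and 35.8% and 27.2% between genotypes. With 3 arrays per group and dim probes such as Col2a1, Col10a1, Col25a1 and Col9a2, signal near background limits what could be called.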

Other observations

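Among the 8 chains left out of the tests, Col9a3 was well above background on 1 of 24 arrays, the third knockout infusion array, at -2.95. Col28a1 was well above background on 1 wild-type control array, at -4.0. By its brightest probe Col19a1 was well above background on 7 of 12 uninfused arrays, where it ran from -4.90 to -3.97. On infused arrays it was so on 3 of 12 and ran from -7.12 to -4.12. A second, dimmer Col19a1 probe, well above background on 5 arrays, passed the filter but did not stand for the gene. With limma and adjustment over kept probes, its mean infusion difference was -1.11 (adjusted p 0.000136). It was called in wild type on water (-1.6, adjusted p 0.00881) and on salt (-1.29, adjusted p 0.0226). In knockout it gave -0.85 on water (adjusted p 0.126) and -0.68 on salt (adjusted p 0.233).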
